A study of Mus musculus with 18 samples.

Results

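The polysome fraction of mouse testis was compared between adult animals and animals of 17 days. The comparison used 6 of the 18 arrays of the series: 3 arrays of adult polysomes and 3 of 17-day polysomes, chosen by their titles, with every probe set other than the array's own controls. All animals were CD1 mice, an outbred laboratory strain, and no treatment or genotype is named. Cytoplasmic extract of testes had been spun through a sucrose gradient of 10 to 30%, and the polysome RNA came from fractions 11 to 17 of 17. The age of the adults in days is not given in the labels. The 3 polysome arrays of 22-day testes and the 3 arrays of 17-day ribonucleoprotein particles (RNPs) are given beside the comparison where they add a value.

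A polysome is a messenger RNA with several ribosomes on it, and this fraction holds the transcripts being translated. RNPs are the slowly sedimenting messenger RNAs without ribosomes, in which spermatids store many transcripts before they are used. Spermatogenesis runs from dividing spermatogonia through meiotic spermatocytes to haploid spermatids, which condense their chromatin and build the acrosome and tail. At 17 days the first wave of germ cells has reached meiotic prophase, at 22 days it includes young spermatids, and the adult testis holds all stages.

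Each array gave 1 intensity value per probe set, scaled so that its trimmed mean lay between 150.042 and 150.058, and medians of the 6 arrays ran from 52.4 to 59.5. Levels are therefore relative to the other transcripts of the same array. Between 11386 and 12058 probe sets an array lay above 51.6 intensity units, the value used to filter low signals. Within an age, polysome arrays correlated at 0.928 to 0.979 (17-day) and 0.859 to 0.940 (adult) across probe sets, and between the ages at 0.691 to 0.767. The 17-day replicate 2 and adult replicate 1 stood apart from the others of their groups, and their deviations from the group means correlated at 0.375. Their poly-A control signals were the highest of their groups, 426 and 273, against at most 126 on the other 4 arrays. The ratio of the 3′ to the 5′ control probe set of Actb, a measure of RNA quality, was 1.54 to 2.08 on 17-day and 1.38 to 1.40 on adult polysome arrays, with no overlap, and its part in the results was not tested. The labels number the replicates as biological and say no more of their origin, so each p-value measures spread among these arrays that may be partly technical.

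The polysome fraction changed broadly between 17 days and adulthood. Of 14066 tested probe sets, 4251 differed (30.2%), 1714 higher (12.2%) and 2537 lower (18%) in the adult. At least 2-fold differences were found for 1225 higher (8.71%) and 1177 lower (8.37%). Log2 differences, always adult minus 17-day, ran from -3.29 to 8.06 with a median of -0.16. By gene, with the brightest probe set standing for a gene, 2701 of 8713 genes differed (31.0%), 1195 higher (13.7%) and 1506 lower (17.3%), with a median of -0.14. Of the genes, 864 were at least 2-fold higher (9.92%) and 670 at least 2-fold lower (7.69%). The 3 adult arrays all lay above the 3 17-day arrays for 15.6% of probe sets (17.1% of genes) and all below for 24.5% (24.1% of genes). Without 17-day replicate 1 the calls fell to 2720 and without replicate 3 to 2710, mostly through lower calls (1428 and 1454). With both arrays that stood apart left out, 4931 were called. That fit, used wherever these arrays are left out together below, also lacked 17-day RNP replicate 2. A change on polysomes joins the amount of a transcript, its share on ribosomes and the share of cells that hold it, and in whole testes fewer cells of a type and less RNA per cell cannot be told apart.

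**Figure D1:**
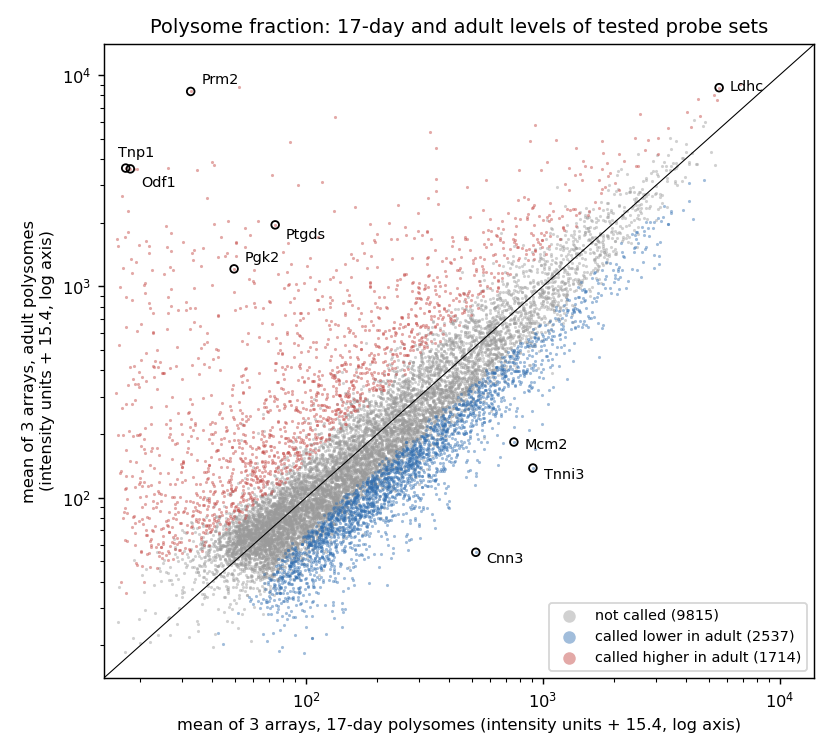
Mean level of each of the 14066 tested probe sets on 3 adult polysome arrays (vertical axis) against 3 17-day polysome arrays (horizontal axis), both in intensity units plus 15.4 on log axes. The 1714 probe sets called higher (red) spread far above the line of equality, up to Prm2, while the 2537 called lower (blue) lie in a narrow band below it.

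Transcripts for the proteins that pack sperm DNA were among the largest rises, which were led by Prm2 and Tnp1. Of the 12 genes on a list of chromatin condensation, 8 rose and 1 fell, with a median of 5.88 (9 and 1 without the arrays that stood apart). The list's shares were 66.7% higher and 8.33% lower, against 13.7% and 17.3% of all genes. Of the 12, 6 were at or below the filter value on all 3 17-day polysome arrays, against 10.1% of all tested probe sets. Such genes entered the test only through other arrays, so their part of the share higher is a description. Prm2, a protamine that replaces histones in sperm, was at 28.2, 4.9 and 18.5 on the 17-day arrays and at 8422, 9426 and 7152 on the adult arrays. The ages did not overlap, as the naming of the largest changes required, and the 17-day values all lay under the filter value. The log2 difference was 8.06 ± 0.58 (SE, n = 3 arrays per age), a 267-fold change on the log2(value + 15.4) scale used throughout, with an adjusted p of 2.65e-07. Prm1, the other protamine, stood at 69.0, 7.8 and 33.1 at 17 days and at 9218, 10117 and 6893 in the adult. Only 1 of its 17-day arrays exceeded the filter value, and the difference was 7.57 ± 0.61.

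The transition proteins, which hold DNA between the loss of histones and the arrival of protamines, rose from near the bottom of the scale. Tnp1 read 1.7, 1.2 and 2.9 on 17-day polysomes and 3988, 3644 and 3190 on adult polysomes (7.70 ± 0.58, adjusted p = 4.2e-07). Another Tnp1 probe set gave 2.98. Tnp2 read 3.0, 1.0 and 8.0 against 3394, 3174 and 4129 (7.54 ± 0.53). Hils1, a linker histone of spermatids, followed them at 7.54 ± 0.38. All adult arrays of these genes were far above all 17-day arrays. Rnf8, a ubiquitin ligase that acts on histones, was the member that fell: 484, 453 and 490 at 17 days against 250, 239 and 226 in the adult (-0.95 ± 0.18, adjusted p = 0.00185).

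At 22 days the same transcripts lay between the ages and varied widely. Prm2 was at 298, 22.9 and 99.5 on the 3 22-day arrays, and Tnp1 at 266, 8.5 and 47.4. In both genes the array of replicate 1 was the highest and that of replicate 2 under the filter value. In 17-day RNPs, Prm2 averaged 23.1 ± 16.9 (SD, n = 3) and Tnp1 2.5 ± 0.82, so neither fraction of 17-day testes gave more than a low reading.

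Promoters of 4 of the genes with the largest changes are shown for their CG dinucleotides, the sites of DNA methylation, which were counted in the 250 bases before the start of each gene in the RefSeq table (GRCm38.p6). They are the 2 largest rises and the 2 largest falls, all with 1 listed start, printed 5′ to 3′ on the gene's strand with CG in capitals. They lie at chr16:10792106-10792355 (minus strand), chr1:73015900-73016149 (minus strand), chr3:121426291-121426540 (plus strand) and chr7:4522529-4522778 (minus strand).
Prm2: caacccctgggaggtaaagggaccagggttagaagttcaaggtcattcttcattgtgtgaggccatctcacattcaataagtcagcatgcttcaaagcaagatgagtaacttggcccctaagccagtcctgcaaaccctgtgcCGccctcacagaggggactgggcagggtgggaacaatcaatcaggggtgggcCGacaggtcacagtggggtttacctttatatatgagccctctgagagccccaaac
Tnp1: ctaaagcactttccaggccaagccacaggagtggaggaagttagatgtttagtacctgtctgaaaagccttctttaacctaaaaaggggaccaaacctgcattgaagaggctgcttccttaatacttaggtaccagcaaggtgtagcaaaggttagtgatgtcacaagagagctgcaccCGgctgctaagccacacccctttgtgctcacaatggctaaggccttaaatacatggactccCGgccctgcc
Cnn3: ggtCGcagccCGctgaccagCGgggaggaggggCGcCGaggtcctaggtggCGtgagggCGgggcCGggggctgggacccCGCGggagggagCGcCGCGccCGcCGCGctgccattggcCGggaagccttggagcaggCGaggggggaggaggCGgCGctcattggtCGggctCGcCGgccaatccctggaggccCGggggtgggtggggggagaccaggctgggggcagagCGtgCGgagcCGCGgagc
Tnni3: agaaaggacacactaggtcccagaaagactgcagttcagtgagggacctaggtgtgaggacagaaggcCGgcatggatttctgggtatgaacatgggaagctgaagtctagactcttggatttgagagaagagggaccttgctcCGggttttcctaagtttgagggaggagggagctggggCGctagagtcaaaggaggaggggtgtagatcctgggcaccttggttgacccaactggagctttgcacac
Prm2 and Tnp1 each hold 2 CG and the Cnn3 promoter 28, while Tnni3, also lower in the adult, holds 3.

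Over the 7093 genes with a promoter in the table, the median CG count was 16, and 11.1% had under 5. Among genes at least 2-fold higher on adult polysomes, 708 in all, the median was 11.75 and 27.4% had under 5. The 298 that were at least 4-fold higher had a median of 6.25, and 43.0% of them had under 5. The 546 genes at least 2-fold lower had a median of 17.75 and 5.31% under 5. By list, the share under 5 ran from 22.2% (spermatid kinases) to 58.3% (chromatin condensation) in the spermatid lists. It was 44.8% in the Sertoli cell, 53.3% in the Leydig cell and 61.5% in the blood, vessel and macrophage list. The peritubular list lay within the spermatid range, and all other lists with promoters had at most 5%. Few CG were therefore not particular to lists that mostly rose, since the Sertoli cell list had more falls than rises. The cAMP response element TGACGTCA, the site of the spermatid activator CREM (its reverse complement is the same), was found in 3.39% of the genes at least 2-fold higher and in 3.10% of all 7093. The E2F sites TTTGGCGC or TTTCCCGC, on either strand, occurred in 12.2% of 49 cell cycle genes and 19.4% of 31 meiosis genes against 3.10% of all 7093, and in 0 to 6.06% of the other lists with promoters. They occurred in 1.98% of the genes at least 2-fold higher and 4.76% of those at least 2-fold lower. Over all 27025 genes of the table the shares were 1.77% for the cAMP response element and 1.51% for the E2F sites. By list the cAMP response element ran from 0% to 10% (2 of 20 immediate early and stress genes). It was in 8% of 25 sperm tail and 7.41% of 27 spermatid kinase genes, 2 genes each. The chromatin condensation and acrosome lists gave 0%, and the genes at least 4-fold higher 4.03%. A match is a description of the sequence and not evidence of binding.

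Transcripts of the sperm tail were called higher in 77.4% of the tested genes, against 13.7% of all genes. On all 3 17-day polysome arrays 10 of the 31 were at or below the filter value, so they entered the test only through other arrays. Of 31 tested genes 24 rose and 0 fell by limma (26 and 0 at an unadjusted p under 0.05), with a median of 2.52 (27 and 0 without the arrays that stood apart). Odf1, which encodes an outer dense fibre protein, was at 3.0, 2.3 and 2.9 on 17-day and at 2642, 3852 and 4235 on adult polysomes. It rose by 7.60 ± 0.34 (adjusted p = 5.36e-09). Smcp, a protein of the mitochondrial sheath, rose from 9.6, 8.7 and 13.6 to 3254, 3610 and 3973 (7.12 ± 0.30). All 17-day values of both genes were under the filter value and all adult values far above it.

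Proteins of the fibrous sheath, the sleeve around the principal piece of the tail, gave smaller rises than Odf1 and Smcp, with no test of that difference. Akap4, its main scaffold, read 29.2, 32.6 and 44.2 at 17 days and 639, 1310 and 2191 in the adult (4.62 ± 0.35). Adult replicate 1 was the lowest of the adult arrays, yet above every 17-day array. Further Akap4 probe sets gave 6.56 and 5.93. Akap3 rose by 5.13 ± 0.35 and Ropn1, ropporin, by 5.58 ± 0.35, with adult means of 1880 and 3352. Members not called included the intraflagellar transport gene Ift88 (-0.33) and Rsph1 (-0.03), which were already at 347 and 3329 on 17-day polysomes. These last 2 genes fall outside the naming rule and were chosen after their values were seen.

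Acrosome and sperm surface genes were called higher in 62.5% of the tested genes, against 13.7% of all genes. Of 24 tested genes 15 rose and 0 fell by limma (18 and 1 at an unadjusted p under 0.05), with a median of 1.59. Without the arrays that stood apart 20 rose and the median was 2.25. Of the 24, 5 were at or below the filter value on all 3 17-day polysome arrays. Acr, the acrosomal protease acrosin, was at 169, 268 and 190 on 17-day and at 633, 586 and 604 on adult polysomes (1.50 ± 0.21, adjusted p = 0.000147). Of its 22-day arrays, 594, 626 and 463, those of replicates 1 and 2 lay in the adult range. Acrv1, a protein of the acrosomal matrix, rose from 25, 29.5 and 13.6 to 147, 953 and 663 (3.66 ± 0.59). Adult replicate 1 lay lowest, and the 22-day arrays (544, 285 and 98.3) overlapped the adult ones. Prss37, a serine protease family member needed for sperm migration, rose by 4.02 ± 0.43, Zpbp, a zona pellucida binding protein, by 3.14 ± 0.47, and Lyzl4, a lysozyme-like sperm protein, by 2.93 ± 0.30.

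Spermatid kinases and regulators were also called higher more often than all genes (70% against 13.7%). Of the 30 tested, 8 were at or below the filter value on all 3 17-day polysome arrays. Of 30 tested genes 21 rose and 1 fell, with a median of 1.50 (22 and 1 without the arrays that stood apart). Gsg1, a germ cell gene whose protein binds the poly(A) polymerase of the testis, was at 23.5, 27.6 and 23.4 at 17 days and at 4135, 3185 and 4214 in the adult (6.57 ± 0.26). Tssk6, a testis-specific serine kinase, rose from 18.1, 4.3 and 8.3 to 2411, 1624 and 1684 (6.24 ± 0.33). Fhl5, the coactivator of CREM, rose by 6.05 ± 0.40, and Klhl10, a ubiquitin ligase adaptor of spermatids, by 6.03 ± 0.33. None of these overlapped between the ages.

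Taf7l, a germ cell form of a general transcription factor subunit, was the member that fell. It read 636, 279 and 724 on 17-day and 88.0, 220 and 156 on adult polysomes (-1.69 ± 0.38, adjusted p = 0.0046). The 17-day replicate 2 lay nearest the adult arrays.

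Among the 10 largest rises were 3 genes outside these lists. St6galnac2, a sialyltransferase, went from 3.6, 1.1 and 2.5 to 1622, 2502 and 2612 (6.96 ± 0.31). Oxct2a, a germ cell enzyme of ketone body use, went from 28.8, 11.2 and 18 to 3922, 3226 and 3453 (6.70 ± 0.29). Cby2, a chibby family member of spermatids, went from 2.4, 1.9 and 2.9 to 2324, 1669 and 1366 (6.63 ± 0.43). None of the 3 exceeded the filter value on any 17-day array.

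**Figure D2:**
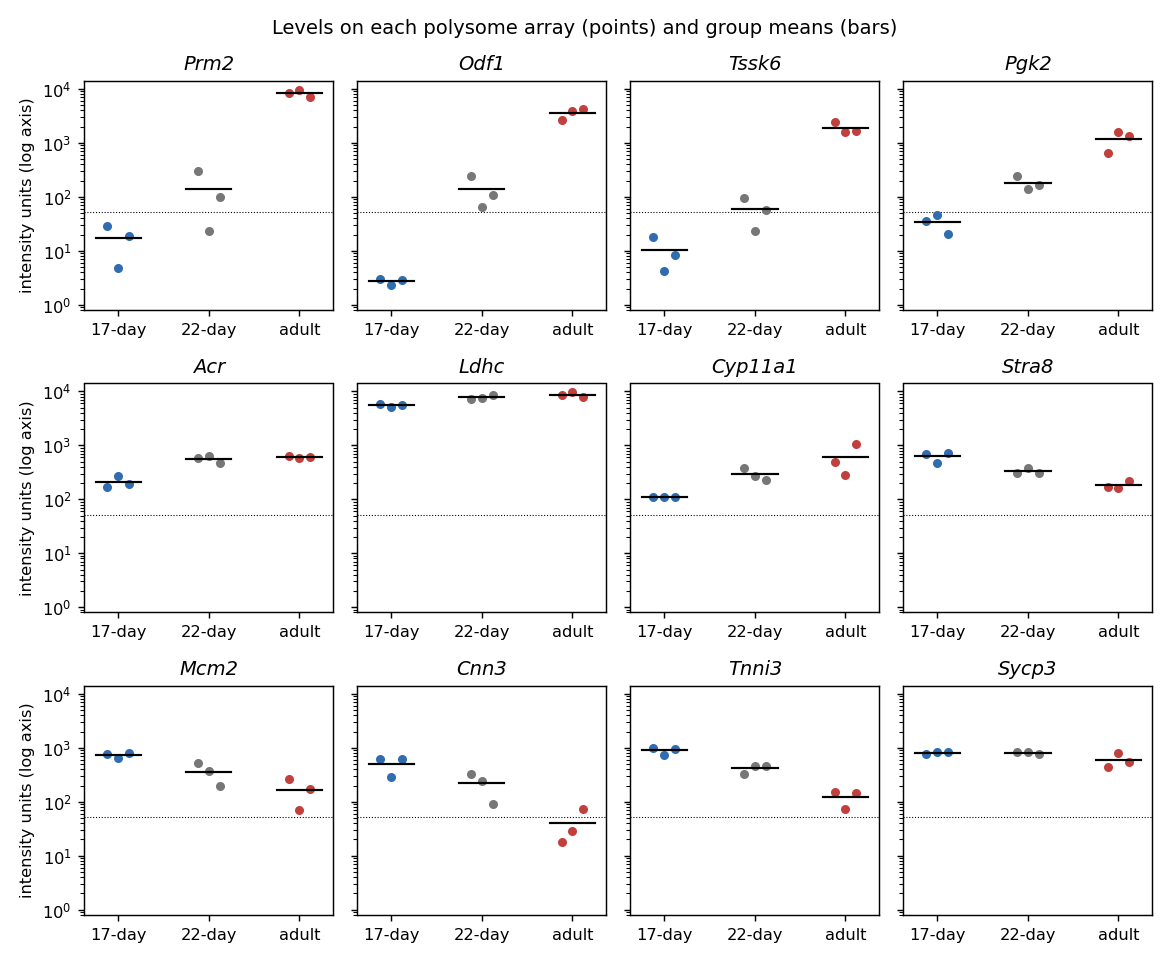
Level of 12 genes on each polysome array at 17 days (blue), 22 days (grey) and in the adult (red), in intensity units on a log axis, with group means as bars and the filter value of 51.6 as a dotted line. Prm2, Odf1 and Tssk6 start under the line, Acr and Ldhc are near their adult levels at 22 days, and Mcm2, Cnn3, Tnni3 and Stra8 fall.

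The 1225 probe sets at least 2-fold higher were chosen by the same contrast, so their low 17-day values are a description and no finding. Of them, 498 (40.7%) were at or below 51.6 on all 3 17-day polysome arrays, against 10.1% of all tested probe sets. Of these 498, 391 (31.9% of the 1225) were also at or below it on all 3 17-day RNP arrays and 42 (3.43%) were above it on all 3. Over all tested probe sets those shares were 6.04% and 1.19%. Pgk2, the phosphoglycerate kinase of germ cells, had an RNP mean of 372 ± 23.0 (SD, n = 3) while its 17-day polysome arrays read 35.6, 46.7 and 20.6. Its adult polysome arrays read 649, 1578 and 1352 (4.54 ± 0.32). Of the 1225, the 22-day mean lay between the ages in 89.9% and nearer to 17 days in 60.8%. Of the 1177 at least 2-fold lower, these shares were 97.2% and 69.8%, and over all tested probe sets 59.0% and 57.0%. The 60.8% is therefore near the share of all probe sets. A gap of this size between the ages leaves a wide interval for the 22-day mean, so the shares between the ages are also a description.

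Germ cells carry their own copies of many widely used proteins, and 23 pairs of a germ cell gene and its partner could be compared. Of the germ cell genes 15 rose, 7 were not called and 1 fell, with a median of 1.11. Among those that rose, Pgk2, Hspa1l and Capza3 were at or below the filter value on all 3 17-day polysome arrays. They entered the test only through other arrays, so their part of this count is a description. Of the partners 3 rose, 14 were not called and 6 fell, with a median of -0.35. Over all genes 13.7% were called higher and 17.3% lower, so the partners' rises are near the share of all genes. In 3 pairs the germ cell gene rose while the partner fell: Pgk2 and Pgk1, Cetn1 and Cetn2, Fabp9 and Fabp5. Levels of different genes are not set against each other here, since probe sets differ in how they respond.

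Pgk1, the phosphoglycerate kinase of other tissues, read 846, 627 and 700 at 17 days and 290, 227 and 511 in the adult (-1.12 ± 0.28, adjusted p = 0.00973). Its arrays did not overlap. Fabp9, a fatty acid binding protein of sperm, rose by 1.33 ± 0.25, and Fabp5 fell by 0.85 ± 0.28 (adjusted p = 0.0339). The Fabp5 call ended without any of 5 arrays, adult replicate 1 being the exception, with adjusted p from 0.057 to 0.133. It also ended under median centring (0.0509). Another Fabp5 probe set was called lower at -1.71 (adjusted p = 0.000292). Cetn1, the centrin of germ cells, read 854, 600 and 838 against 750, 1630 and 2160, with overlapping ages and an adjusted p of 0.0495. Its call ended without any array other than adult replicate 1 (0.0807 to 0.198) and under quantile normalization (0.0717). Another Cetn1 probe set was called higher at 0.88 (adjusted p = 0.00831). Its partner Cetn2 fell by 1.10 ± 0.23.

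The widest gap within a pair was that of a heat shock protein. Hspa1l, the Hsp70 of spermatids, was at 2.1, 1.1 and 1.3 on 17-day and at 1191, 1370 and 1070 on adult polysomes (6.17 ± 0.40). Its partner Hspa1a stayed between 36.8 and 76.0 on all 6 arrays (-0.14 ± 0.27). Capza3, the actin capping subunit of sperm, rose by 5.01 ± 0.36, while Capza1 read 1225, 598 and 1413 against 226, 1879 and 1260 and was not called (-0.30 ± 0.61, reversed to 0.60 without adult replicate 1). Actl7b, an actin-like protein of spermatids, rose by 3.68 ± 0.27 to adult arrays at 5182, 3670 and 4625. Actb itself, read as a control, was at 4370, 5089 and 4654 against 6232, 5866 and 5044, overlapping between the ages (0.28 ± 0.12, adjusted p = 0.101). It reversed to -0.15 under quantile normalization and was called without adult replicate 3 (0.0449).

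Hspa2, the Hsp70 of meiotic cells, was not called (0.31 ± 0.25, adjusted p = 0.365), with arrays at 2032, 1371 and 2158 against 1893, 2069 and 2954. Hspa8, the constitutive form, fell from 1554, 1477 and 1728 to 186, 493 and 963 (-1.78 ± 0.42, adjusted p = 0.00626). The ages did not overlap for Hspa8 and overlapped for Hspa2. Dnajb3, a co-chaperone of germ cells, rose by 2.54 ± 0.29 and its partner Dnajb1 by 1.62 ± 0.21.

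Ldhc, the lactate dehydrogenase of germ cells, was at 5871, 5201 and 5512 on 17-day and at 8682, 9587 and 7777 on adult polysomes. The ages did not overlap, and the rise was 0.65 ± 0.11 (adjusted p = 0.000777). Under quantile normalization its difference was 0.00 and the call was lost. Ldha rose by 1.28 ± 0.22. Pgam2, a phosphoglycerate mutase, rose by 2.63 ± 0.24, and its partner Pgam1 (-0.56 ± 0.23, adjusted p = 0.0854) was called lower without adult replicate 1 (-0.84, adjusted p = 0.00378). Outside glycolysis, Gstm5, a glutathione transferase of sperm, rose by 1.42 ± 0.17 with Gstm1 not called (0.35).

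In mitochondrial pairs no germ cell gene was called. Pdha2, a pyruvate dehydrogenase subunit of germ cells, was not called (0.46 ± 0.20, adjusted p = 0.107), and Pdha1 fell by 0.69 ± 0.24 (adjusted p = 0.0403). The Pdha1 call ended without any of 4 arrays, 17-day replicates 1, 2 and 3 and adult replicate 1 (adjusted p from 0.0596 to 0.131). It also ended under quantile normalization (0.0946), under median centring (0.0697) and with no filter (0.0646). Another Pdha1 probe set was called lower at -0.95 (adjusted p = 0.00762). Cyct, the cytochrome c of the testis, gave 0.00 ± 0.28 and Cycs -0.35 ± 0.20, the latter called without adult replicate 2 (adjusted p = 0.032). Cox6b2 and Cox6b1 gave -0.34 ± 0.39 and -0.56 ± 0.26, neither called. Cox6b2 was called lower without adult replicate 3 (-0.93, adjusted p = 0.0192), and Cox6b1 without adult replicate 1 (-0.89, adjusted p = 0.00669).

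Papolb, the poly(A) polymerase of spermatids, was at 111, 125 and 91.1 against 304, 1057 and 565 (2.24 ± 0.34), with Papola not called (-0.53). Pabpc2, a poly(A) binding protein of the testis, read 227, 490 and 219 against 1139, 1823 and 1140 (2.14 ± 0.30). Its partner Pabpc1 (0.40 ± 0.15, adjusted p = 0.0662) was called higher without adult replicate 1 (0.58, adjusted p = 0.00374). Cstf2t, the germ cell copy of a cleavage factor, was not called (0.09), while its X-linked partner Cstf2 rose by 1.02 ± 0.24. Another Cstf2 probe set was called lower. Tbpl1, the TATA-binding-protein-like factor of spermatids, gave 0.75 ± 0.35 (adjusted p = 0.116) and was called higher without adult replicate 1 (1.29, adjusted p = 0.000442).

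Of the remaining pairs, Txnrd3, a thioredoxin reductase of the testis, rose by 1.13 ± 0.25 and Ppp3cc, a calcineurin subunit of sperm, by 1.11 ± 0.23, with Txnrd1 (0.11) and Ppp3ca (0.12) not called. Clgn, calmegin, a chaperone of sperm surface proteins, read 279, 580 and 296 against 465, 1074 and 870 and overlapped between the ages (1.03 ± 0.35, adjusted p = 0.0407). The Clgn call ended without 17-day replicate 1 or 3 or adult replicate 2 or 3 (adjusted p from 0.111 to 0.151). Another Clgn probe set (0.81) and Canx, calnexin (-0.57), were not called. Eif2s3y, the Y-linked copy of an initiation factor subunit, was not called (-0.35), and X-linked Eif2s3x fell by 1.07 ± 0.32. The Eif2s3x call ended without 17-day replicate 1 or 3 or adult replicate 1 (adjusted p from 0.0716 to 0.0934), and its other probe set was not called (-1.15, adjusted p = 0.055).

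**Figure D3:**
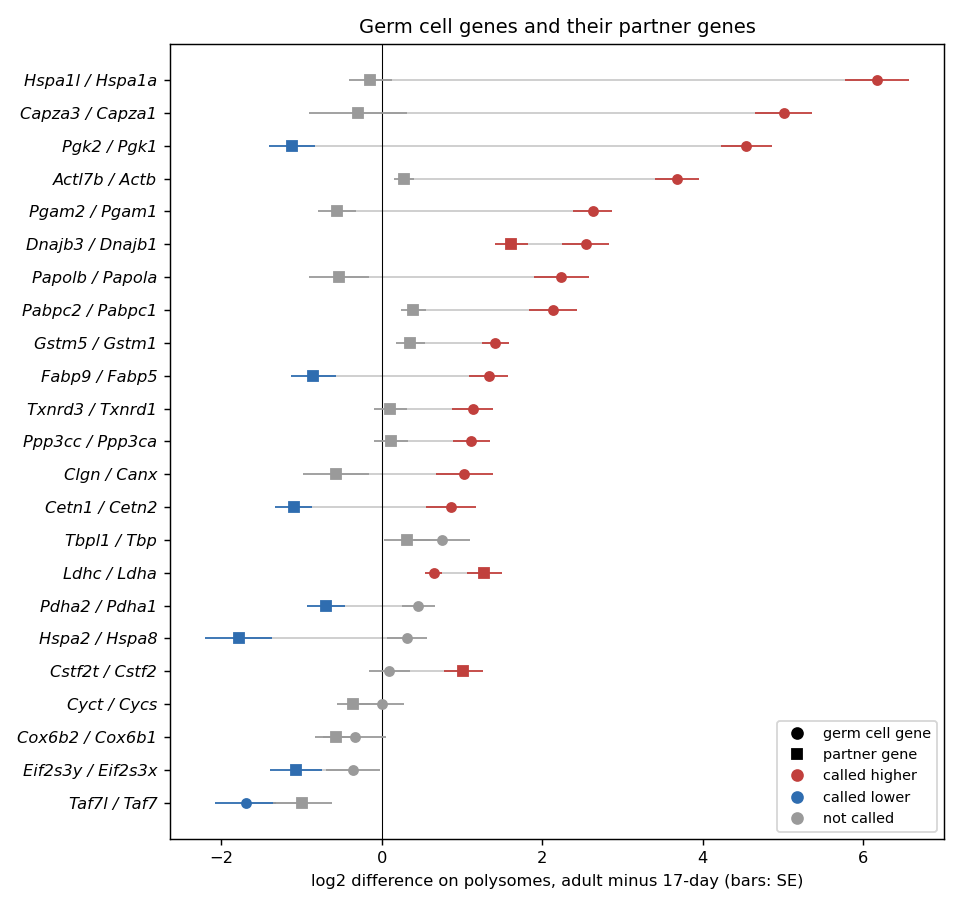
Log2 difference on polysomes, adult minus 17-day, for 23 pairs of a germ cell gene (circle) and its partner (square), with standard errors as bars and the call as colour. Germ cell genes were called higher in 15 pairs and partners in 3, and the widest gaps are those of Hspa1l and Hspa1a and of Pgk2 and Pgk1. Hspa1l, Pgk2 and Capza3 were at or below the filter value on all 3 17-day polysome arrays.

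Transcripts of early germ cells lay lower on adult polysomes. Of 31 tested spermatogonial genes 2 rose and 17 fell, with a median of -0.93. The shares were 6.45% higher and 54.8% lower, against 13.7% and 17.3% of all genes. Without the arrays that stood apart 1 rose and 17 fell. Stra8, the retinoic acid target that starts meiosis, was at 697, 477 and 707 at 17 days and at 169, 162 and 218 in the adult (-1.68 ± 0.22, adjusted p = 9.92e-05). Crabp1, a retinoic acid binding protein, fell from 289, 166 and 314 to 49.5, 32.7 and 60.6 (-2.09 ± 0.30). Both showed no overlap, with 17-day replicate 2 nearest the adult arrays.

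Tktl1, a transketolase-like enzyme, and Dnmt3b, a DNA methyltransferase of early germ cells, fell by 1.47 ± 0.32 and 1.34 ± 0.21. Ngfr, a neurotrophin receptor, rose by 1.68 ± 0.40 from 17-day arrays that all lay under the filter value. Ccnd3, a D cyclin, rose by 0.66 ± 0.22 (adjusted p = 0.036), a call that ended without any array other than adult replicate 2 (adjusted p from 0.0506 to 0.11).

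Genes of DNA replication and cell division gave 2 rises and 24 falls among 59 tested, with a median of -0.63 (2 and 23 without the arrays that stood apart). Lower calls made up 40.7% of the list, against 17.3% of all genes. Mcm2, a subunit of the replicative helicase, fell from 754, 653 and 809 to 263, 69.9 and 170 (-2.20 ± 0.40, adjusted p = 0.00126). Mcm3 (-2.10 ± 0.23) and Mcm5 (-1.75 ± 0.28) of the same complex fell too, as did the proliferation marker Mki67 (118, 198 and 108 against 13.3, 33.6 and 31.7). The ages did not overlap in any of the 4. Of the complex's other subunits, chosen after their values were seen, Mcm4 (-1.66) and Mcm6 (-1.73) fell and Mcm7 was not called on any of 4 probe sets (-0.28 to 0.10). The 2 that rose act in cell division: Ccnb2, a B cyclin, at 634, 696 and 658 against 1582, 1551 and 1397 (1.17 ± 0.19), and Aurka, a spindle kinase (0.93 ± 0.22).

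Meiosis genes gave 2 rises and 11 falls among 36, with a median of -0.56 (4 and 11 without the arrays that stood apart). The shares were 5.56% higher and 30.6% lower, against 13.7% and 17.3% of all genes. Their summed level overlapped, at 13467 to 16437 intensity units on 17-day and 11924 to 16151 on adult arrays. Only adult replicate 1 lay below the 17-day range. The falls numbered 4 without 17-day replicate 1, 3 without 17-day replicate 3 and 6 without adult replicate 1. Lower calls over all probe sets dropped as well, to 1428 without 17-day replicate 1 and 1454 without replicate 3. Tex11, an X-linked recombination gene, fell from 110, 120 and 142 to 23.9, 42.6 and 33.9 (-1.52 ± 0.27). Exo1 (-1.21 ± 0.20) and Atm (-1.15 ± 0.26), which process and signal DNA breaks, fell as well. Mnd1, a cofactor of strand exchange, fell by 1.22 ± 0.34 (adjusted p = 0.0164), and its call ended without 17-day replicate 1 (0.0654) or 3 (0.0727).

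Sycp3, a rod protein of the synaptonemal complex, was not called: it read 780, 823 and 825 on 17-day and 436, 809 and 556 on adult polysomes (-0.47 ± 0.22, adjusted p = 0.131). Its adult replicate 2 lay within the 17-day range, and without that array it was called (-0.70, adjusted p = 0.0213). Rec8, a meiotic cohesin, went the other way, from 30.5, 43.3 and 48.6 to 849, 356 and 355 (3.14 ± 0.31). Ccna1, the A cyclin of late spermatocytes, rose from 85.2, 186 and 70.1 to 1255, 559 and 725 (2.76 ± 0.33). Adult replicate 1 was the highest in both, and neither overlapped.

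Somatic cell markers were checked for the types a whole testis holds. Of 39 tested Sertoli cell genes, the nurse cells of the tubules, 4 rose (10.3%) and 14 fell (35.9%), with a median of -0.62, against 13.7% and 17.3% of all genes. Their summed level was 20912 to 26423 intensity units on 17-day and 15415 to 19766 on adult arrays. Without the arrays that stood apart the counts were 4 and 15, and without 17-day replicate 1 only 2 rose. Gstm6, a glutathione transferase, fell from 942, 586 and 1054 to 162, 77.6 and 340 (-2.24 ± 0.41). Vim, vimentin, fell from 1382, 1168 and 1410 to 286, 432 and 563 (-1.64 ± 0.31), and Bex2 (-2.01 ± 0.25) and Bex1 (-1.74 ± 0.35) fell too. Their ages did not overlap.

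Against that direction, Ptgds, a prostaglandin synthase, rose from 53.5, 88.4 and 34.2 to 1927, 2050 and 1831 (4.78 ± 0.25, adjusted p = 1.62e-08), and Fabp3, a fatty acid binding protein, rose by 3.06 ± 0.26. On 22-day polysomes Ptgds was still at 71.3, 88.5 and 87.3. Clu, the secreted chaperone clusterin, was not called (-0.19 ± 0.56, adjusted p = 0.826) and its sign reversed without 17-day replicate 2 (0.21) or adult replicate 3 (0.22). It read 2208, 4313 and 1613 against 2928, 2866 and 1234, with overlapping ages. Its other 3 probe sets were not called either, at -0.69 to 0.15.

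Leydig cell genes, those of the testosterone-producing cells between the tubules, gave 12 rises (52.2%) and 1 fall among 23, against 13.7% and 17.3% of all genes, with a median of 0.81 (15 and 2 without the arrays that stood apart). Without adult replicate 1 alone 3 were lower. Their summed level was 4922 to 5829 on 17-day and 7982 to 12718 on adult arrays. Of the 23, 7 were at or below the filter value on all 3 17-day polysome arrays. Cyp11a1, the enzyme of the initial step of steroid synthesis, was at 112, 111 and 111 at 17 days and at 483, 287 and 1065 in the adult (2.11 ± 0.41, adjusted p = 0.00195). The adult arrays differed among themselves, with replicate 3 highest, and did not overlap the 17-day arrays.

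The largest Leydig cell rises were those of 3 kallikreins, Klk1b27 (3.87 ± 0.26), Klk1b21 (3.79 ± 0.28) and Klk1b24 (3.27 ± 0.26), near-identical family members whose probes may cross-hybridise, and of Agt, angiotensinogen (3.46 ± 0.39). Agt read 9.0, 64.8 and 9.5 against 330, 406 and 426. Hmgcs1, an enzyme of cholesterol synthesis, was the member that fell (-0.93 ± 0.32, adjusted p = 0.0402). Its call ended without any of 4 arrays, 17-day replicates 1, 2 and 3 and adult replicate 1 (adjusted p from 0.0745 to 0.106), and under median centring (0.0566). Of its other 3 probe sets, 1 was called lower (-1.33) and 2 were not called (-0.83 and -0.84).

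Peritubular and connective tissue genes gave 1 rise and 14 falls among 33 tested, with a median of -0.72 (2 and 14 without the arrays that stood apart). Lower calls were 42.4% of the list, against 17.3% of all genes. Their summed level was 8793 to 10829 on 17-day and 4193 to 7002 on adult arrays. Tpm1, a tropomyosin, fell from 455, 310 and 391 to 91.5, 37.9 and 90.9 (-2.23 ± 0.36), and the collagen gene Col3a1 from 187, 329 and 134 to 32.9, 21.3 and 72.9 (-2.02 ± 0.40). Col4a1, of basement membranes, and Mgp, matrix Gla protein, fell by 1.96 ± 0.29 and 1.70 ± 0.41. Actg2, an actin of smooth muscle, rose from 58.7, 55.6 and 63.5 to 593, 487 and 573 (2.92 ± 0.23). None of these overlapped.

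Of 21 tested blood, vessel and macrophage genes 2 rose and 0 fell by limma (4 and 0 at an unadjusted p under 0.05), with a median of 0.21 and the same counts without the arrays that stood apart. Both shares (9.52% and 0%) were below those of all genes (13.7% and 17.3%). Aif1, a calcium-binding protein known from macrophages, rose from 23.5, 16.4 and 22.4 to 471, 421 and 589 (3.81 ± 0.24), and Alas2, a haem synthesis enzyme of red cells, by 1.39 ± 0.18. Of 10 epididymis genes on the array, from the duct that joins the testis, 0 passed the filter. The part of cell type shares in the other results was not tested.

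Genes for proteins that bind and store germ cell messenger RNA were called lower in 31.1% and higher in 13.3%, against 17.3% and 13.7% of all genes, so the rises are at the share of all genes. Of 45 tested genes 6 rose and 14 fell, with a median of -0.45 (8 and 17 without the arrays that stood apart). The falls numbered 7 without 17-day replicate 1 and 7 without replicate 3. Cpeb1, which controls poly(A) tails, fell from 211, 160 and 237 to 58.2, 55.7 and 79.2 (-1.45 ± 0.20). Mov10l1, a helicase of the piRNA pathway (-1.34 ± 0.25), Paip2, an inhibitor of poly(A) binding protein (-1.34 ± 0.21), and Fxr2, of the fragile X family (-1.22 ± 0.22), fell as well. In this list the rises were led by Papolb and Pabpc2, given above. Ybx2, the DNA- and RNA-binding protein that coats stored germ cell messages, was not called (0.76), a gene named after its value was seen.

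Few translation factors were called. Of 44 tested genes 1 rose and 5 fell, with a median of -0.11 (3 and 9 without the arrays that stood apart). Both shares (2.27% and 11.4%) were below those of all genes (13.7% and 17.3%). Eef1d, an elongation factor subunit, rose from 566, 603 and 591 to 1997, 1574 and 1844 (1.59 ± 0.19). Gspt2 and Etf1, release factors, fell by 1.38 ± 0.32 and 1.28 ± 0.25. Eif2b1, of the eIF2B exchange factor, fell by 0.83 ± 0.25 (adjusted p = 0.0213), a call that ended without 17-day replicate 1 or 3 or adult replicate 1 (0.0595 to 0.0805). Without 17-day replicate 1 the list gave 3 falls and without replicate 3 it gave 2. Without 17-day replicate 2, or any adult replicate, it gave 2 rises.

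Of 44 ribosomal protein genes 0 rose and 17 fell by limma (0 and 23 at an unadjusted p under 0.05), with a median of -0.41. The falls were 38.6% of the list, against 17.3% of all genes. This count depended on processing: 26 fell without the arrays that stood apart, 30 under quantile normalization, 11 under median centring, and 6 without 17-day replicate 1. Rps4x, which is X-linked, fell from 939, 554 and 768 to 132, 259 and 294 (-1.70 ± 0.33). Rpl27 (-1.22 ± 0.24), Rps3a1 (-1.18 ± 0.28) and Rps15 (-1.18 ± 0.22) followed, and none of the 4 overlapped. Many pseudogenes resemble these genes, so their probe sets are less certain.

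The proteasome, which degrades proteins, gave 5 rises and 8 falls among 46 genes, with a median of -0.27 (7 and 13 without the arrays that stood apart). These shares, 10.9% higher and 17.4% lower, were near those of all genes (13.7% and 17.3%), so the counts are no result about the proteasome. The largest changes were rises of regulators. Psmf1, an inhibitor subunit, rose from 275, 220 and 240 to 1265, 1005 and 1111 (2.13 ± 0.20), and Psme3, an activator, rose by 1.85 ± 0.23. Among the falls Psma4 (-0.93 ± 0.24), Psmb10 (-0.80 ± 0.26), Psmd14 (-0.80 ± 0.27) and Psmd3 (-0.69 ± 0.23) each lost the call without 17-day replicate 1 (adjusted p from 0.0505 to 0.128). The last 3 also lost it without 17-day replicate 3 (0.0976 to 0.134), and the list then gave 1 fall, and 0 without replicate 1. Adult replicate 2 decided Psmb10 and Psmd3 as well (0.126 and 0.119), adult replicate 1 decided Psmd14 (0.12), and 17-day replicate 2 decided Psmb10 and Psmd3 (0.0728 and 0.0774) and left 5 falls. Under median centring 3 fell, and Psmb10, Psmd14 and Psmd3 lost their calls (0.057 to 0.0706). Psmb10 also lost it under quantile normalization (0.082).

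The endoplasmic reticulum route of secretion gave 3 rises and 2 falls among 50 genes, with a median of -0.19 (5 and 3 without the arrays that stood apart). The shares, 6% and 4%, were below those of all genes (13.7% and 17.3%). Arf4, a small GTPase of Golgi traffic, rose from 441, 250 and 518 to 1651, 1672 and 1522 (2.02 ± 0.33). The signal peptidase subunits went both ways: Spcs2 and Spcs1 rose by 0.90 ± 0.26 and 0.83 ± 0.22, and Sec11a fell by 0.94 ± 0.33 (adjusted p = 0.044). Leaving out any of the 6 arrays ended the Sec11a call (adjusted p from 0.059 to 0.152), as did median centring (0.0548). Spcs2 lost its call without 17-day replicate 1 or 3 or adult replicate 2 (0.0563 to 0.0831), and Spcs1 without 17-day replicate 3 (0.0649). The other probe set of Spcs2 was not called (-0.81), and that of Spcs1 was called higher (0.84). Copa, of the vesicle coat, fell by 0.79 ± 0.20.

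Respiratory chain genes gave 1 rise and 10 falls among 69, with a median of -0.12. These are 1.45% and 14.5% of the list, below the 13.7% and 17.3% of all genes. The falls numbered 15 without the arrays that stood apart, 16 without adult replicate 1, 17 under quantile normalization, and 6 without 17-day replicate 1 or replicate 3. The rises numbered 2 without 17-day replicate 2 or adult replicate 1 or 2. Ndufa4 fell from 838, 643 and 729 to 216, 150 and 234 (-1.82 ± 0.26), and the ATP synthase genes Atp5k and Atp5g2 by 1.32 ± 0.25 and 1.10 ± 0.24. Sdhd, of succinate dehydrogenase, fell by 1.13 ± 0.26, and Ndufa12, of complex I, rose by 1.03 ± 0.23.

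X-linked genes active in most tissues were lower. Meiotic cells silence the X chromosome, and this state lasts in part into spermatids. Any part of it in these falls was not tested. Of 70 tested genes 4 rose and 33 fell, with a median of -0.68. The shares were 5.71% higher and 47.1% lower, against 13.7% and 17.3% of all genes. The counts were 5 and 32 without the arrays that stood apart, and the falls numbered 16 without 17-day replicate 1 and 17 without replicate 3. Kdm6a, a histone demethylase, fell from 72.5, 133 and 126 to 13.9, 41.1 and 26.3 (-1.58 ± 0.31). Usp9x, a deubiquitinase, and Cul4b, a ubiquitin ligase scaffold, fell by 1.50 ± 0.31 and 1.48 ± 0.31.

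Of the X-linked genes that rose, Tspan6, a tetraspanin, went from 24.5, 27.1 and 19.0 to 144, 625 and 428 (3.20 ± 0.39), and Wdr13, a WD repeat protein, from 37.4, 26.0 and 23.2 to 356, 241 and 195 (2.63 ± 0.28). The 17-day arrays of both were all under the filter value, and all adult arrays were above it.

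Immediate early and stress genes, which respond to handling as well as to signals, gave 5 rises and 6 falls among 24, with a median of -0.19 (3 and 8 without the arrays that stood apart). Without 17-day replicate 1 the counts were 3 and 3, and without replicate 3 the falls were 3. The shares of the full comparison were 20.8% and 25%, against 13.7% and 17.3% of all genes, and rest on few genes. Klf4, a transcription factor of spermatids, rose from 89.7, 89.0 and 87.8 to 301, 272 and 351 (1.63 ± 0.23). Egr1, an early response factor, fell from 362, 364 and 353 to 214, 53.0 and 151 (-1.44 ± 0.38, adjusted p = 0.0124). Hspa1b, an inducible Hsp70, and Ier2 fell by 1.30 ± 0.24 and 1.03 ± 0.26. Hsph1, an Hsp110 chaperone, fell by 1.03 ± 0.30 (adjusted p = 0.0203), and its call ended without 17-day replicate 1 or 3 or adult replicate 1 (0.0561 to 0.0816). Its other probe set gave 0.09 and was not called.

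**Figure D4:**
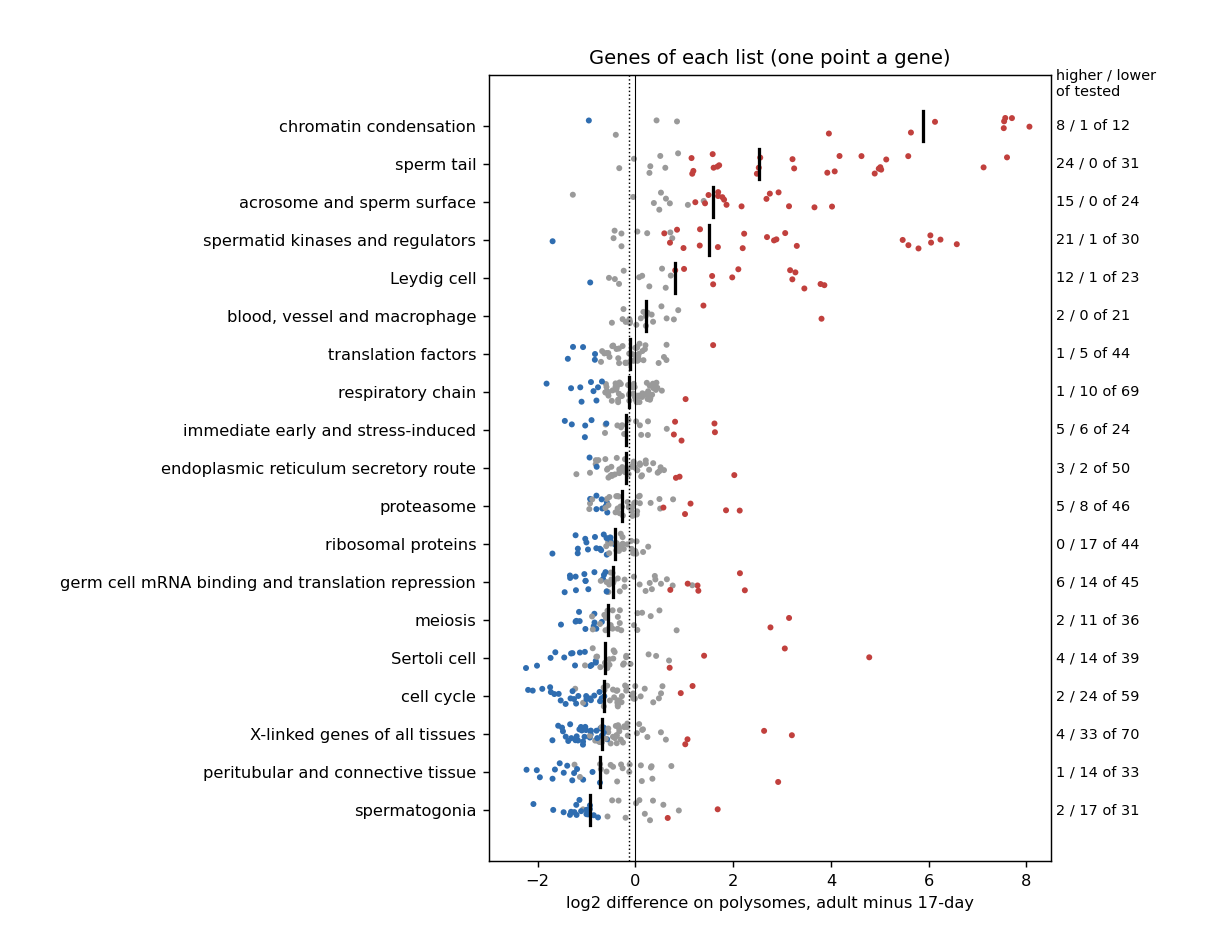
Log2 difference on polysomes, adult minus 17-day, of every tested gene in 19 lists, with medians as thick bars, genes called higher in red and lower in blue, and the median of all genes (-0.14) as a dotted line. Only genes that passed the filter are drawn, so the counts are not of all listed genes. The spermatid lists and the Leydig cell list lie right of the dotted line, and the lists of spermatogonia, peritubular tissue and X-linked genes lie left of it.

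The largest falls were smaller in size than the largest rises. Cnn3, calponin 3, which binds actin, was at 619, 289 and 608 on 17-day and at 17.6, 28.5 and 73.1 on adult polysomes (-3.29 ± 0.55, adjusted p = 0.000624). All 6 of its probe sets were called lower, at -3.29 to -0.90. Tnni3, cardiac troponin I, fell from 976, 751 and 948 to 152, 72.0 and 144 (-2.77 ± 0.26), and S100a10, the annexin A2 partner, from 1063, 715 and 961 to 185, 88.5 and 192 (-2.49 ± 0.26). None of the 3 overlapped, which was a condition for naming the largest changes.

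The next falls included signalling and matrix genes. Map3k4, a kinase of the p38 pathway, fell from 285, 354 and 366 to 17.1, 67.8 and 85.1 (-2.43 ± 0.34). Its other probe set gave -0.71 and was also called. Ryk, a Wnt receptor, fell by 2.38 ± 0.50, with its other probe set at -2.18, and Ldb1, a LIM domain binding cofactor, by 2.36 ± 0.31. Bgn, the matrix proteoglycan biglycan, fell by 2.36 ± 0.44 on its lowest probe set and by 0.73 and 1.64 on its others.

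Several of these falls were not shared by all probe sets of the gene. Ptov1 fell by 2.53 ± 0.38 on a probe set at 217, 196 and 201 against 30.0, 23.9 and 15.3, while its other probe set gave -0.28 (adjusted p = 0.33). Oga, the enzyme that removes O-GlcNAc from proteins, fell by 2.37 ± 0.50, with adult arrays at 9.9, 121 and 111, while its other 3 probe sets were not called at -1.40 to 0.23. Ncl, nucleolin, fell by 2.37 ± 0.58 from 1146, 687 and 1283 to 41.1, 253 and 490, and its other 2 probe sets missed the threshold (adjusted p of 0.0516 and 0.0622).

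Probe sets of 1 gene can match different ends or splice forms of its transcripts, and 47 genes held a probe set called higher beside another called lower. These were 8.53% of the 551 genes with more than 1 called probe set. The count was 20 without 17-day replicate 3, 21 without 17-day replicate 1 and 76 without the arrays that stood apart. In 42 of the 47 both probe sets had ages that did not overlap. Over all tested probe sets the adult arrays lay all above in 15.6% and all below in 24.5%. The probe sets were chosen by their calls in the same contrast, so this count is a description.

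Cdyl, a chromodomain protein of spermatids, gave the widest gap. A probe set rose from 76.9, 34.2 and 71.8 to 1154, 1192 and 1044 (3.96 ± 0.30), and another fell from 204, 83.1 and 145 to 31.6, 42.7 and 58.1 (-1.37 ± 0.32, adjusted p = 0.00602). Usp12, a deubiquitinase, had a probe set that rose from 34.9, 14.7 and 5.5 to 472, 927 and 584 (4.36 ± 0.46) and another that fell from 94.3, 123 and 105 to 46.8, 54.9 and 61.4 (-0.81 ± 0.18). Neither gene had overlapping ages on either probe set.

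Knop1, a nucleolar protein, gave 3.58 ± 0.33 and -1.39 ± 0.34, and Kif1b, a kinesin motor, 2.20 ± 0.24 and -1.07 ± 0.26. Of the 5 tested probe sets of Bzw1, a regulator of start codon choice, 2 were called higher and 3 lower. The one with the largest rise read 255, 179 and 311 against 557, 1778 and 1039 (1.99 ± 0.49). The one with the largest fall read 973, 588 and 984 against 145, 451 and 327 (-1.52 ± 0.35). Rnf138, a ubiquitin ligase, gave 3.42 ± 0.35 and -1.10 ± 0.30, Skp2, a subunit of a ubiquitin ligase, 3.43 ± 0.25 and -0.82 ± 0.22, and Tle3, a corepressor, 2.56 ± 0.24 and -0.71 ± 0.22. The falls of these 3 lost their calls without 17-day replicate 3 (adjusted p of 0.0578, 0.0781 and 0.0813). Those of Rnf138 and Tle3 were also lost without 17-day replicate 1 (0.0587 and 0.0715). That of Tle3 was lost without adult replicate 2 (0.0844) and under quantile normalization (0.0623). The Skp2 probe set that fell was near the filter value, at 50.2, 42.5 and 68.7 against 17.2, 31.9 and 22.0. The Skp2 probe set that rose was under it on all 3 17-day arrays.

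**Figure D5:**
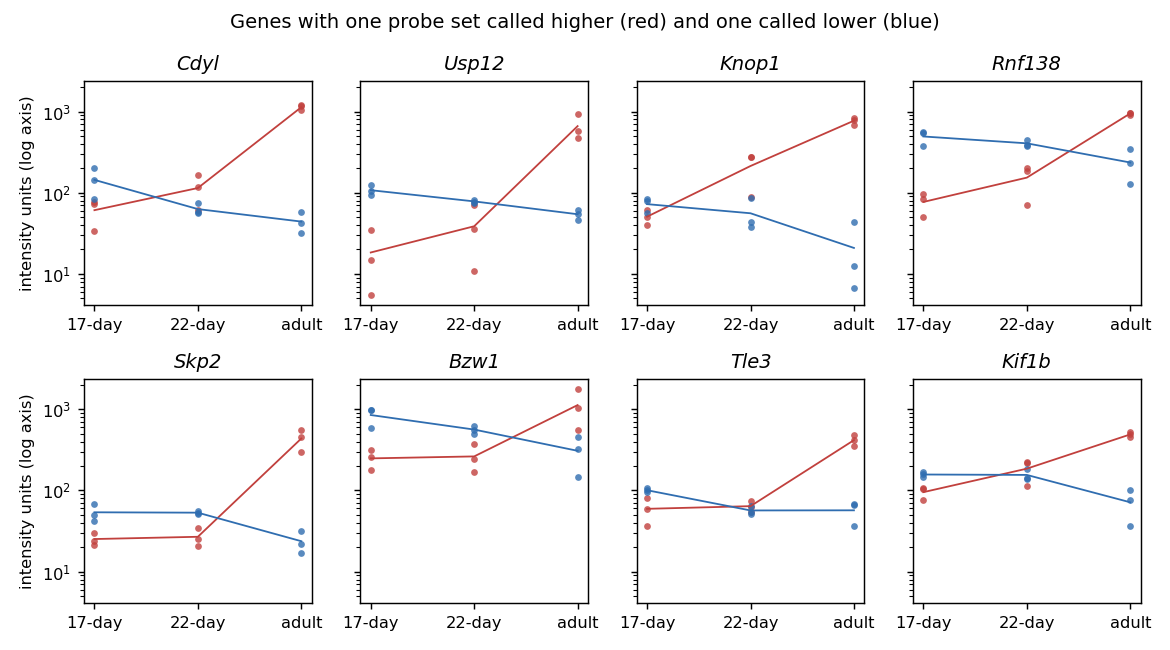
Levels on each polysome array (points) and means by age (lines), in intensity units on a log axis, of 8 genes with a probe set called higher (red) and another called lower (blue). On this axis most of the rise in the means of the red probe sets lies between 22 days and the adult, except in Knop1.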

How the data were processed

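RNA of gradient fractions was hybridised to Affymetrix mouse arrays. The deposited values are linear intensities, 1 for each probe set of each array. Per the submitters' processing notes they were made with MAS5, whose version and scaling the sources used here do not give. Of 22690 probe sets, 64 controls were left out. Values were analysed as log2(value + 15.4), the pseudocount being the 25th percentile of all values, which understates changes of low genes. The 14066 probe sets above 51.6, the 50th percentile, on 3 or more of the 18 arrays entered the test. A probe set low at 1 age could enter through arrays where it was high, so shares called in a list are partly set by the filter.

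The fit was limma 3.58.1 in R 4.3.3 (lmFit, eBayes with a variance trend, two-sided, Benjamini-Hochberg over all tested probe sets, threshold 0.05). It held 12 arrays in 4 groups: polysomes at 3 ages and 17-day RNPs, with 8 residual and 5.74 prior degrees of freedom. Every adjusted p is from this limma model or its alternatives, and every SE is the model's. A model of all 18 arrays and a test of the polysome change against the RNP change had been planned. The sample table fixed at the outset put the 22-day RNP arrays under adult RNP by mistake, so the 6 arrays under that name entered no comparison, and the test was not run. The arrays' number limits the precision. The script was tested on simulated data.

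Names came from the platform annotation: 20393 probe sets had 1 symbol, 691 several and 1606 none. By Entrez ID 20364 were found in the RefSeq table of GRCm38.p6, 0 were renamed and 29 were not found. Of the tested, 12972 named 1 gene, for 8713 genes, each given in lists and pairs by the probe set with the highest mean log2 value over all 18 arrays. Promoters, without chromosome 18, came from the RefSeq table (GRCm38.p6), and genes with several starts were given their median CG count and matched at any start for motifs.

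Named genes were the 10 largest called differences in each direction with ages that did not overlap, up to 4 called genes of each list in the direction with more calls and up to 2 in the other, the pairs, fixed marker genes, and the 8 widest gaps between probe sets called in opposite directions. Other names are marked. The members, lists and pairs were chosen with earlier results of these data known.

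Groups share replicate numbers, but deviations from group means of same-numbered 17-day and adult arrays correlated at -0.22, -0.22 and 0.25, so the numbers were not taken to pair them. Same-numbered 17-day polysome and RNP arrays, which are not compared, correlated at 0.31, 0.57 and 0.34, and the model treats them as independent. With the replicate block 4166 probe sets were called, and with the RNP arrays left out 3700. Alternatives covered scaling, pseudocount, filter, the arrays in the fit, the variance trend, the replicate block and each array left out.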

Additional observations from a re-analysis of the deposited data

How the results depend on the processing

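Lower calls, 2537 in the report, came to 1621 with the filter at the 75th percentile and 1550 with only the compared arrays in the fit. Leaving out each array in turn gave 1428 to 2502 lower, 1256 to 1709 higher and 2710 to 4211 calls in all. Genes with probe sets called in opposite directions, 47 in the report, numbered 30 with that filter, 24 with only the compared arrays, 76 without 17-day replicate 2 and adult replicate 1, and 20 to 55 when each array was left out. The setting without 17-day replicate 2 and adult replicate 1 also left out 17-day RNP replicate 2. It gave 4931 called probe sets, 3047 of them lower. The count of all calls was 2886 with only the compared arrays, 2965 with the stricter filter, and 3700 with only the 9 polysome arrays (added after the data were seen). With a replicate block 4166 probe sets were called, 1699 higher and 2467 lower. The block ended the call of Psmd3 (adjusted p = 0.0557) and made that of Taf7 (0.0442), added 1 fall to the acrosome list and 1 rise to translation factors, and changed no other call of a named probe set.

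Of 172 named probe sets 149 were called, and 128 of these kept the call under every one of 17 settings that tested them; 0 reversed. Reversals came from probe sets not called: Actb (-0.15) and Cyct (-0.0475) under quantile normalization, and, without 17-day replicate 2 and adult replicate 1, Cox6b2 (0.23), Canx (0.0819) and Capza1 (0.22). When single arrays were left out, Canx stayed below 0 (-0.99 to -0.08) and values crossed 0 for Clu (-0.50 to 0.22), Cyct (-0.23 to 0.29), Cox6b2 (-0.93 to 0.22), Hspa1a (-0.35 to 0.0565), Capza1 (-0.89 to 0.60), Ppp3ca (-0.0023 to 0.24), Cstf2t (-0.0801 to 0.28) and Eif2s3y (-0.66 to 0.0587). The causes were not tested. Differences between the polysome and RNP changes were not run, nor were their alternatives, because of the sample table error. Low signals limit fold sizes: genes under the filter value at 17 days have no reliable 17-day level.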
